A study of Homo sapiens with 12 samples.

Results

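The 5 NF-kB subunit genes (NFKB1, NFKB2, RELA, RELB and REL), the inhibitor genes NFKBIA and TNFAIP3 and the target genes TNFAIP2, BIRC3 and ICAM1 were followed by RNA sequencing in BT-549 and SUM149 cells. These 10 genes were chosen by name, from 57992 gene lines in the deposited count table, and each passed the filter on low counts in both lines. BT-549 and SUM149 are established lines of triple-negative breast cancer, which lacks the estrogen receptor, the progesterone receptor and HER2. The 4 groups were BT-549 MUC1shRNA and BT-549 CshRNA, grown in RPMI1640 medium with insulin, and SUM149 MUC1shRNA and SUM149 CshRNA, grown in Ham's F-12 medium with insulin and hydrocortisone, with 3 libraries each. MUC1shRNA is a stably expressed short hairpin RNA against MUC1-C, the C-terminal subunit of the mucin MUC1, and CshRNA is a control hairpin, so every group carried a hairpin construct. The descriptions of the BT-549 controls use the word vector for the same samples. Whether an arm was a pool or 1 clone is not said in the labels, and the 3 sets of an arm share its line and hairpin, so p-values measure the spread between these sets.

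NF-kB is a family of dimeric transcription factors. RELA, RELB and REL carry activation domains, while NFKB1 and NFKB2 encode precursors that are processed to the DNA-binding subunits p50 and p52. In resting cells IkB proteins such as the product of NFKBIA hold the dimers in the cytoplasm, and IKK kinases release them after signals from TNF, interleukin-1 or Toll-like receptors. The dimers then switch on their own brakes, NFKBIA and TNFAIP3 among them, along with genes of survival and adhesion. The series is about MUC1-C and dedifferentiation through NuRD, a chromatin-remodelling complex, and the comparison of the hairpins asked what silencing of MUC1 changed.

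The kappa-B element is the DNA sequence that NF-kB dimers bind. RefSeq promoter windows (250 bases before to 50 bases after a gene's RefSeq start, GRCh38.p14) matched 9 of the 10 genes by symbol (not RELB). Both strands were searched for the letters GGGNNNNNCC and for the stricter kappa-B consensus GGGRNNYYCC (R is A or G, Y is C or T). Matches to the consensus are among those of the first letters, and variants of the element outside these letters were not searched for. The stricter consensus was in the windows of 5 of these 9 genes, NFKB1, REL, NFKBIA, TNFAIP3 and BIRC3, and in 10.83% of all 27305 RefSeq promoter windows. The looser letters were in each of these 9 windows and in 57.99% of all windows. Windows of 4 genes, chosen after values were seen, are shown with the matches to the stricter consensus in capitals. TNFAIP3 (chr6:137867009-137867308, plus strand) and BIRC3 (chr11:102317234-102317533, plus strand) held a pair of matches each, NFKBIA (chr14:35404700-35404999, minus strand) held 1 and ICAM1 (chr19:10270870-10271169, plus strand) held none. The ICAM1 window did hold 2 matches to the looser letters. A match is a description of the letters and does not show that a factor was bound. Nor does a window without a match show that a gene lacks a kappa-B element.
TNFAIP3: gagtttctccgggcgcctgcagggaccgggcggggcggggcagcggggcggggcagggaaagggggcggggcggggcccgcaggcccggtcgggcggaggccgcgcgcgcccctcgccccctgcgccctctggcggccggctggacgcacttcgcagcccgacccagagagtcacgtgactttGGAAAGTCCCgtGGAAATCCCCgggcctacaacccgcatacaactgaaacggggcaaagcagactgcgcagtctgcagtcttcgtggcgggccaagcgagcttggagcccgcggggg
BIRC3: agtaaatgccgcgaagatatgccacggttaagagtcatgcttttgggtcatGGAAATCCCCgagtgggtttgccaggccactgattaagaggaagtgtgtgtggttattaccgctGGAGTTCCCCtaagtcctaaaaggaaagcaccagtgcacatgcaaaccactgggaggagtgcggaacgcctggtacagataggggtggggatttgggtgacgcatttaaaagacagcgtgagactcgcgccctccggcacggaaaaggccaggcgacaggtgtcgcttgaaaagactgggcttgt
NFKBIA: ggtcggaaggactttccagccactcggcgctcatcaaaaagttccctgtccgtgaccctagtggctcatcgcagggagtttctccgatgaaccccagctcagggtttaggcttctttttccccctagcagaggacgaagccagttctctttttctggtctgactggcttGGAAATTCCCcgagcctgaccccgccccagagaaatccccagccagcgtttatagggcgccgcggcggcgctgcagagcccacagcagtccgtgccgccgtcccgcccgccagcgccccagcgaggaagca
ICAM1: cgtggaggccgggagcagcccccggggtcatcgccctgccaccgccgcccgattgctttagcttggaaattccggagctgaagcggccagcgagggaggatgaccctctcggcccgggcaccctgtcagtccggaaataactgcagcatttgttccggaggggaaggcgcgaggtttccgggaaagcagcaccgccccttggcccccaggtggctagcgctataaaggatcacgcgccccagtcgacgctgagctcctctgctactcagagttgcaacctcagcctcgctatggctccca

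Counted from the RefSeq start, the matches of TNFAIP3 began at -67 and -55 and those of BIRC3 at -199 and -135, and that of NFKBIA began at -81, each read as the consensus on the strand opposite to the gene. NFKB1 held GGGAATTTCC at -49. REL held GGGAAATTCC at -47, which overlaps an opposite-strand match at -46. The GENCODE starts behind the gene coordinates given below can differ from these RefSeq starts. They were the same for NFKBIA and NFKB2. The RefSeq start lay downstream of the GENCODE one by 19 bases for TNFAIP2, 30 for NFKB1, 34 for BIRC3, 53 for REL, 71 for TNFAIP3 and 285 for ICAM1. By the GENCODE starts the matches of TNFAIP3 and REL therefore lay just inside the gene, and the whole ICAM1 window lay inside it. For RELA the RefSeq start lay 763 bases upstream of the GENCODE one. The RELA window, without a match to the stricter consensus, thus lay wholly upstream of the GENCODE start and did not cover it.

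Library totals ran from 16373893 to 21248768 counts in BT-549 MUC1shRNA, from 16332364 to 20745835 in BT-549 CshRNA, from 7931614 to 9623924 in SUM149 MUC1shRNA and from 19392422 to 24140623 in SUM149 CshRNA. MUC1 itself averaged 4.63 ± 1.2 CPM (counts scaled to a common library total) in BT-549 MUC1shRNA and 53.2 ± 1.2 CPM in BT-549 CshRNA, and 0.625 ± 0.384 CPM in SUM149 MUC1shRNA and 15.0 ± 2.51 CPM in SUM149 CshRNA (SD, n = 3 each). In a principal component analysis of each line, the second component (14.8% of the variance in BT-549, 10.1% in SUM149) set BT-549 MUC1shRNA 2, BT-549 CshRNA 3 and SUM149 CshRNA 3 away from their replicates. BT-549 had VIM at 1557 CPM with MUC1shRNA and 1517 CPM with CshRNA and almost no EPCAM (0.037 CPM with MUC1shRNA and 0.287 CPM with CshRNA), while SUM149 had EPCAM at 445 CPM with MUC1shRNA and 402 CPM with CshRNA. Of 9 leukocyte markers 0 to 1 reached 1 CPM in any group, with CD3E at 0 counts. The summed level of these markers was 1.08 to 1.71 CPM in BT-549 MUC1shRNA against 1.72 to 2.18 CPM in BT-549 CshRNA, and 2.59 to 3.27 CPM in SUM149 MUC1shRNA against 5.10 to 5.34 CPM in SUM149 CshRNA. CD14 made up most of the SUM149 sums, with 2.672 CPM in MUC1shRNA and 4.755 CPM in CshRNA. PTPRC was the highest of these markers in BT-549 CshRNA, at 1.066 CPM, and CD14 in BT-549 MUC1shRNA, at 0.9 CPM. The endothelial markers summed to 1.53 to 2.11 CPM in BT-549 MUC1shRNA against 1.2 to 1.62 CPM in BT-549 CshRNA, and to 9.73 to 11.4 CPM in SUM149 MUC1shRNA against 27.1 to 30.7 CPM in SUM149 CshRNA, where PECAM1 made up most of the sum and CDH5 was near 0.

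With MUC1 silenced, 3 of the 10 genes changed in BT-549 and 9 in SUM149. In BT-549, 3 of the 10 rose (NFKBIA, TNFAIP2 and ICAM1) and 0 fell, while 33.3% of the 13200 tested genes changed, 16.8% upward and 16.5% downward (edgeR's quasi-likelihood test, Benjamini-Hochberg adjusted p below 0.05). DESeq2 and limma-voom also called 3 of the 10 there, and at an unadjusted p below 0.05 RELA was also lower and REL also higher. In SUM149, 9 of the 10 changed, 6 upward (RELB, REL, NFKBIA, TNFAIP3, BIRC3 and ICAM1) and 3 downward (NFKB2, RELA and TNFAIP2), while 56.5% of the 14178 tested genes changed, 27.6% upward and 28.9% downward. The share in BT-549 was thus near that of all tested genes. The median log2 fold change of the 10 was 0.22 in BT-549, against -0.01 over all tested genes, and 0.29 in SUM149, against -0.03 over all tested genes. Without filtering on low counts the BT-549 count was 6, with NFKB2, REL and BIRC3 added, and without BT-549 MUC1shRNA 2 and CshRNA 3 it was 5, with NFKB2 and REL added. It was 2 without BT-549 MUC1shRNA 1 or without BT-549 CshRNA 1, with NFKBIA lost each time. In SUM149 the calls of NFKB2, RELA and REL were all lost without MUC1shRNA 1. In bulk RNA, fewer cells that express a gene and less RNA per cell cannot be told apart.

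**Figure D1:**
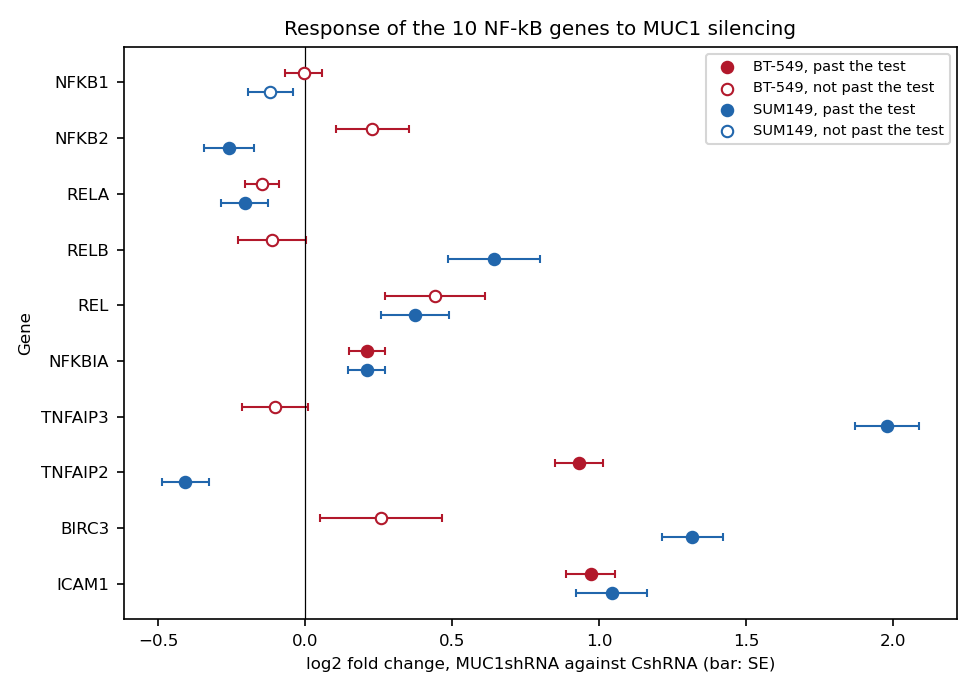
Response to MUC1 silencing as the log2 fold change of MUC1shRNA over CshRNA (horizontal axis) for the 10 genes (vertical axis) in BT-549 (red, upper point of each pair) and SUM149 (blue, lower point). Bars are SE, and filled points passed edgeR's test, from TNFAIP3 at 1.98 in SUM149 down to TNFAIP2 at -0.41 in the same line.

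TNFAIP3 encodes A20, a ubiquitin-editing enzyme that shuts down signalling to NF-kB, and had the largest rise of the 10 genes. In SUM149 its level was 43.5, 48.1 and 42.7 CPM in the MUC1shRNA libraries, against 12.7, 11.9 and 9.67 CPM in the CshRNA libraries. Every silenced library lay far above every control. The log2 fold change was 1.98 (SE 0.11, 3.94-fold, edgeR adjusted p = 8.7e-09), and TNFAIP3, BIRC3 and ICAM1 were the 3 of the 10 that rose at least 2-fold in SUM149, where 4.39% of all tested genes did so. In BT-549, 0 of the 10 rose at least 2-fold, and 2.75% of all tested genes did. ICAM1 lay close to that limit in both lines: it passed it in BT-549 without MUC1shRNA 2 or CshRNA 2, as TNFAIP2 did without MUC1shRNA 3, and missed it in SUM149 without CshRNA 2 and with upper-quartile scaling. In BT-549 the level was 48.7, 42.4 and 40.4 CPM with MUC1shRNA and 52.8, 49.3 and 39.1 CPM with CshRNA. Those arms overlapped, with a log2 fold change of -0.10 (SE 0.11, adjusted p = 0.518). The silenced SUM149 libraries thus lay within the range of the BT-549 libraries, and the SUM149 controls lay apart below both. TNFAIP3 (ENSG00000118503.14) lies on chromosome 6, 137867188 to 137883312 (GRCh38, plus strand), and 1.88% of its exon bases overlap an antisense gene that had 2 to 32 counts in a library.

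NFKBIA encodes IkB-alpha, an inhibitor that NF-kB itself induces and that returns the dimers to the cytoplasm. It rose slightly in both lines. In BT-549 it had 153.8, 153.2 and 136 CPM with MUC1shRNA, against 126, 131 and 125 CPM with CshRNA. In SUM149 it had 71.0, 72.6 and 71.5 CPM with MUC1shRNA, against 62.8, 61.0 and 63.9 CPM with CshRNA. The arms did not overlap in either line. The log2 fold changes were 0.21 in BT-549 (SE 0.06, edgeR adjusted p = 0.025) and 0.21 in SUM149 (SE 0.06, adjusted p = 0.012). The BT-549 call was lost without MUC1shRNA 1 (adjusted p = 0.113), MUC1shRNA 2 (0.054) or CshRNA 1 (0.078), and the SUM149 call without CshRNA 2 (0.065), with upper-quartile scaling (0.056) and with no filter (0.085).

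ICAM1 encodes an adhesion molecule that binds leukocyte integrins and is a classical NF-kB target in epithelial and endothelial cells. It rose in both lines, at very different levels. Its levels in BT-549 were 127, 106 and 117 CPM with MUC1shRNA, against 59.9, 64.3 and 54.2 CPM with CshRNA. Those in SUM149 were 14.5, 16.7 and 15.3 CPM with MUC1shRNA, against 7.85, 6.90 and 8.03 CPM with CshRNA. The arms were well separated in each line, and even the silenced SUM149 libraries lay below the BT-549 controls. The log2 fold changes were 0.97 in BT-549 (SE 0.08, adjusted p = 3.6e-05, edgeR) and 1.04 in SUM149 (SE 0.12, adjusted p = 8.9e-06). Their difference, BT-549 minus SUM149, was -0.05 (SE 0.14, adjusted p = 0.808). ICAM1 (ENSG00000090339.8) lies on chromosome 19, 10270835 to 10286615, and shares 22% of its exon bases with an opposite-strand gene that had 0 to 4 counts in a library.

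BIRC3 encodes cIAP2, a ubiquitin ligase of TNF receptor complexes that blocks cell death. In SUM149 it had 61.8, 49.6 and 61.2 CPM with MUC1shRNA, against 24.2, 25.2 and 20.5 CPM with CshRNA. The silenced libraries were all above the controls, and the log2 fold change was 1.32 (SE 0.10, 2.49-fold, edgeR adjusted p = 2.6e-07). Its BT-549 levels were 47.1, 31.8 and 39.8 CPM with MUC1shRNA, against 36.6, 41.3 and 21.9 CPM with CshRNA. There the arms overlapped, and the log2 fold change was 0.26 (SE 0.21, adjusted p = 0.374), with BT-549 CshRNA 3 the lowest library. Without filtering, the adjusted p of this change was 0.018.

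TNFAIP2 encodes a cytoplasmic protein that TNF induces in endothelial cells and that promotes membrane protrusions. It was the gene of the 10 that changed in opposite directions. Its BT-549 levels were 72.1, 73.4 and 61.8 CPM with MUC1shRNA, against 38.4, 33.9 and 36.3 CPM with CshRNA. Its SUM149 levels were 77.3, 87.8 and 82.1 CPM with MUC1shRNA, against 119.8, 111 and 100.0 CPM with CshRNA. The arms did not overlap in either line, the silenced libraries being the higher in BT-549 and the lower in SUM149. The log2 fold change was 0.93 in BT-549 (SE 0.08, adjusted p = 4.3e-05, edgeR) and -0.41 in SUM149 (SE 0.08, adjusted p = 8.4e-04). Of the 12125 genes tested in both lines, 9.93% changed in opposite directions, 5.97% rose in both, as NFKBIA and ICAM1 did, and 5.11% fell in both.

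In SUM149 the silenced libraries were also the shallower ones, each with fewer counts than any control. With the control libraries thinned to the mean total of the silenced ones, 8651681 counts, 8 of the 9 calls remained and RELA was lost (adjusted p = 0.088). Of the markers, FN1 averaged 3100 CPM in SUM149 MUC1shRNA and 766 CPM in SUM149 CshRNA, while the other 5 mesenchymal markers summed to 81.9 to 91.9 CPM with MUC1shRNA against 80.9 to 87.7 CPM with CshRNA. KRT5, an epithelial keratin, averaged 136 CPM in SUM149 MUC1shRNA and 273 CPM in SUM149 CshRNA, while KRT8 averaged 588 and 560 CPM. All 8 epithelial markers summed to 1968 to 2032 CPM in SUM149 MUC1shRNA and to 2066 to 2092 CPM in SUM149 CshRNA. In BT-549, KRT18 averaged 655 CPM with MUC1shRNA and 290.1 CPM with CshRNA, and KRT8 282 CPM with MUC1shRNA and 44.5 CPM with CshRNA. The other 6 epithelial markers summed to at least 18.4 CPM in each BT-549 MUC1shRNA library and to at most 16.2 CPM in each BT-549 CshRNA library. KRT5 made up most of these sums, at 15.9 CPM with MUC1shRNA and 12.1 CPM with CshRNA. EPCAM and KRT14 had lower means with MUC1shRNA, and CDH1, CLDN4 and ESRP1 slightly higher ones. THY1, a mesenchymal marker, averaged 221 CPM in BT-549 MUC1shRNA and 654 CPM in BT-549 CshRNA. SPARC went the other way, with 2088 CPM in BT-549 MUC1shRNA and 1332 CPM in BT-549 CshRNA, as did FN1 (2202 and 1706 CPM). All 6 mesenchymal markers summed to 5607 to 6757 CPM with MUC1shRNA there and to 5020 to 5783 CPM with CshRNA. The part of these markers in the changes of the NF-kB genes was not tested.

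Of the subunit genes, RELB had the largest fitted change in SUM149. RELB, the activating partner of p52 in the noncanonical pathway, had 11.6, 18.1 and 16.3 CPM in SUM149 MUC1shRNA, against 10.95, 10.1 and 8.66 CPM in SUM149 CshRNA. The arms did not overlap, although MUC1shRNA 1 lay close to the highest control, and RELB rose by 0.64 on the log2 scale (SE 0.16, edgeR adjusted p = 0.0034). In BT-549 its levels were 28.99, 20.7 and 26.9 CPM with MUC1shRNA, against 28.3, 28.8 and 25.7 CPM with CshRNA. Here MUC1shRNA 2 alone lay below the controls, and the log2 fold change was -0.11 (SE 0.12, adjusted p = 0.490), or 0.02 without that library.

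REL encodes c-Rel, a subunit best known from lymphocytes. It had 27.1, 22.8 and 24.2 CPM in SUM149 MUC1shRNA, against 21.2, 20.1 and 16.2 CPM in SUM149 CshRNA. The arms lay next to each other without overlap, and REL rose by 0.37 on the log2 scale (SE 0.12, edgeR adjusted p = 0.014), a call lost without MUC1shRNA 1 (0.059) and with all 12 libraries in 1 fit (0.055). The BT-549 levels were 13.8, 9.43 and 13.3 CPM with MUC1shRNA, against 8.73, 10.7 and 7.62 CPM with CshRNA. MUC1shRNA 2 fell among the controls, and the log2 fold change was 0.44 (SE 0.17, adjusted p = 0.069), with adjusted p = 0.0099 without that library, 0.038 without CshRNA 2 and 0.0043 without filtering. REL (ENSG00000162924.13, chromosome 2, 60881521 to 60931610) shares 43.3% of its exon bases with a same-strand noncoding gene that had 0 counts in all 12 libraries.

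NFKB2 encodes the precursor of p52. In SUM149 it had 46.1, 57.4 and 47.7 CPM with MUC1shRNA, against 59.9, 61.4 and 61.2 CPM with CshRNA. All silenced libraries were lower, and NFKB2 fell by 0.26 on the log2 scale (SE 0.08, edgeR adjusted p = 0.018), a call lost without MUC1shRNA 1 (0.088) or MUC1shRNA 3 (0.112) and with all 12 libraries in 1 fit (0.078). The BT-549 levels were 90.4, 69.2 and 91.3 CPM with MUC1shRNA, against 83.2, 68.5 and 62.0 CPM with CshRNA. Those arms overlapped, with a log2 fold change of 0.23 (SE 0.12, adjusted p = 0.185), and with adjusted p = 0.027 without MUC1shRNA 2, 0.014 without filtering and 0.011 without both libraries that stood apart.

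RELA encodes p65, the main activating subunit of the canonical pathway. It had 91.5, 108 and 93.5 CPM in SUM149 MUC1shRNA, against 120.5, 113 and 107 CPM in SUM149 CshRNA. The arms overlapped by 1 library and RELA passed the test narrowly (-0.21, SE 0.08, edgeR adjusted p = 0.040). The call was lost without CshRNA 1 (0.130), CshRNA 2 (0.072), MUC1shRNA 1 (0.142) or MUC1shRNA 3 (0.175), and with RLE size factors (0.052). The BT-549 levels were 116, 111 and 109 CPM with MUC1shRNA, against 123, 118 and 130.0 CPM with CshRNA. Those arms did not overlap, the silenced one being lower, and the log2 fold change was -0.15 (SE 0.06, adjusted p = 0.076).

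NFKB1, the precursor of p50, was the steadiest of the 10. Its levels ran from 75.7 to 85.4 CPM in BT-549 MUC1shRNA against 78.5 to 84.7 CPM in BT-549 CshRNA, and from 71.2 to 76.4 CPM in SUM149 MUC1shRNA against 75.5 to 90.4 CPM in SUM149 CshRNA. Both pairs of arms overlapped, and the log2 fold changes of -0.01 in BT-549 (SE 0.06, edgeR adjusted p = 0.961) and -0.12 in SUM149 (SE 0.08, adjusted p = 0.206) were not past the test. Arms without overlap were found for 4 of the 10 genes in BT-549, 3 with the silenced arm higher and 1 with it lower, while 47% of all tested genes there had such arms, 23.8% higher and 23.2% lower. In SUM149 they were found for 8 of the 10, 6 higher and 2 lower, while 62.6% of all tested genes had such arms, 29.3% higher and 33.3% lower.

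**Figure D2:**
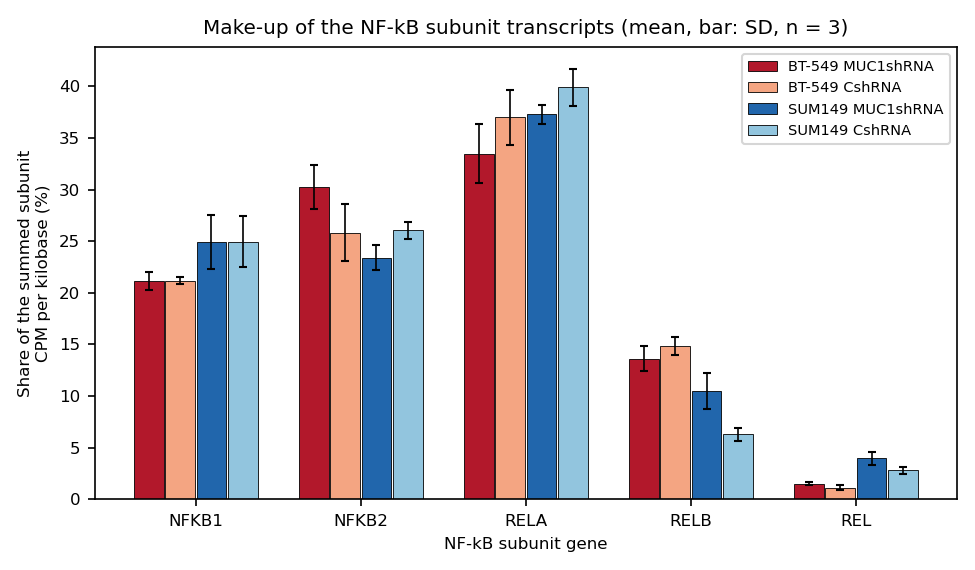
Share of each subunit gene in the summed level of the 5 subunit genes, in percent of CPM per kilobase of exon (vertical axis), by gene (horizontal axis) and group. Bars are means of 3 libraries with SD, and RELB makes up 10.5% in SUM149 MUC1shRNA and 6.26% in SUM149 CshRNA.

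Per kilobase of exon, RELA had the highest level of the subunit genes in each group, with 33.5% ± 2.87 of the summed subunit level in BT-549 MUC1shRNA, 37.0% ± 2.65 in BT-549 CshRNA, 37.3% ± 0.938 in SUM149 MUC1shRNA and 39.9% ± 1.82 in SUM149 CshRNA (SD, n = 3 each). RELB made up 13.6% ± 1.18 in BT-549 MUC1shRNA and 14.8% ± 0.912 in BT-549 CshRNA, and 10.5% ± 1.76 in SUM149 MUC1shRNA and 6.26% ± 0.673 in SUM149 CshRNA. REL made up the least in each group, with 1.5% ± 0.177 in BT-549 MUC1shRNA, 1.118% ± 0.208 in BT-549 CshRNA, 3.94% ± 0.608 in SUM149 MUC1shRNA and 2.79% ± 0.362 in SUM149 CshRNA. Of all 10 genes NFKBIA had the highest level per kilobase in each group, from 62.3 ± 4.15 CPM per kilobase in BT-549 MUC1shRNA to 26.4 ± 0.606 in SUM149 CshRNA, and REL the lowest. Both ranks held with the length of the longest transcript in place of the exon union. With exon bases shared with another gene left out of the length, REL was still the lowest subunit in each group, but in SUM149 CshRNA TNFAIP3 was the lowest of the 10, at 2.30 CPM per kilobase, and REL came next at 2.57.

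The response of 5 of the 10 genes differed between the lines in the test of the difference itself, BT-549 minus SUM149, against 39.6% of 15649 tested genes. TNFAIP3 differed the most, at -2.07 on the log2 scale (SE 0.17, edgeR adjusted p = 3.3e-07), followed by TNFAIP2 at 1.35 (SE 0.12, adjusted p = 7.0e-07) and BIRC3 at -1.04 (SE 0.27, adjusted p = 0.0059). RELB differed by -0.74 (SE 0.21, adjusted p = 0.012). NFKB2 differed by 0.50 (SE 0.17, adjusted p = 0.027), and its call was lost without BT-549 MUC1shRNA 1 (0.080), MUC1shRNA 3 (0.073), CshRNA 2 (0.060) or CshRNA 3 (0.073), and without SUM149 MUC1shRNA 1 (0.069) or MUC1shRNA 3 (0.070). NFKBIA, whose fold changes lay closest together, differed by 0.02 (SE 0.08, adjusted p = 0.911), REL by 0.08 (SE 0.22, adjusted p = 0.812), RELA by 0.07 (SE 0.10, adjusted p = 0.601) and NFKB1 by 0.13 (SE 0.11, adjusted p = 0.360). MUC1 itself differed by 1.08 (SE 0.43, adjusted p = 0.059).

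**Figure D3:**
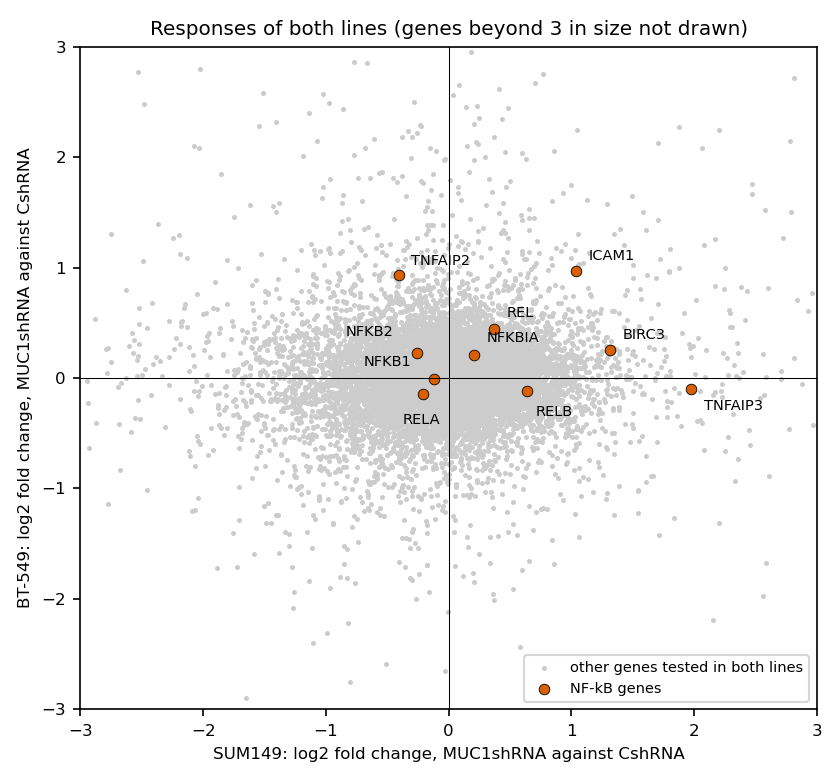
Log2 fold change, MUC1shRNA against CshRNA, in BT-549 (vertical axis) and SUM149 (horizontal axis) for the 10 NF-kB genes (orange) and the other genes tested in both lines (grey). ICAM1 lies near 1 in both lines, TNFAIP3 at -0.10 in BT-549 and 1.98 in SUM149, and TNFAIP2 at 0.93 in BT-549 and -0.41 in SUM149.

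The control arms of the lines already differed in most of these genes. Of the 10, 5 were higher in BT-549 CshRNA than in SUM149 CshRNA and 2 were lower, while 83% of 15649 tested genes differed, 39.5% upward and 43.5% downward. ICAM1 was 7.81-fold higher in BT-549 (2.97 on the log2 scale, SE 0.10, edgeR adjusted p = 3.8e-13), TNFAIP3 4.11-fold (2.04, SE 0.12, adjusted p = 4.8e-10), RELB 2.78-fold (1.47, SE 0.15, adjusted p = 1.7e-07) and NFKBIA 2.04-fold (1.03, SE 0.06, adjusted p = 2.0e-10). BIRC3 was 0.51 higher on the log2 scale (SE 0.19, adjusted p = 0.022) with overlapping arms, a call lost without BT-549 CshRNA 1 (0.073), BT-549 CshRNA 2 (0.118) or SUM149 CshRNA 3 (0.055), in DESeq2 (0.052), with upper-quartile scaling (0.065) and with the filter of 5 CPM (0.053). TNFAIP2 was lower in BT-549 (log2 fold change -1.61, SE 0.09, adjusted p = 1.1e-10), and so was REL (-1.1, SE 0.16, adjusted p = 8.3e-06). NFKB1 (0.00, SE 0.07, adjusted p = 0.983), RELA (0.12, SE 0.07, adjusted p = 0.112) and NFKB2 (0.23, SE 0.12, adjusted p = 0.082) did not pass, though the NFKB2 arms did not overlap. NFKB2 passed without BT-549 MUC1shRNA 2 (0.038), without BT-549 CshRNA 3 (0.024), without the 3 libraries that stood apart (0.0015) and with no filter (7.8e-04), and RELA passed with no filter (0.026). Arms without overlap were found for 7 of the 10 genes, 5 higher and 2 lower in BT-549, while 84% of all tested genes had such arms, 39.8% higher and 44.1% lower. Upper-quartile scaling moved the median of all genes in this comparison by -0.12 on the log2 scale. Line, medium (with hydrocortisone in SUM149 alone) and any difference in preparation cannot be told apart here.

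**Figure D4:**
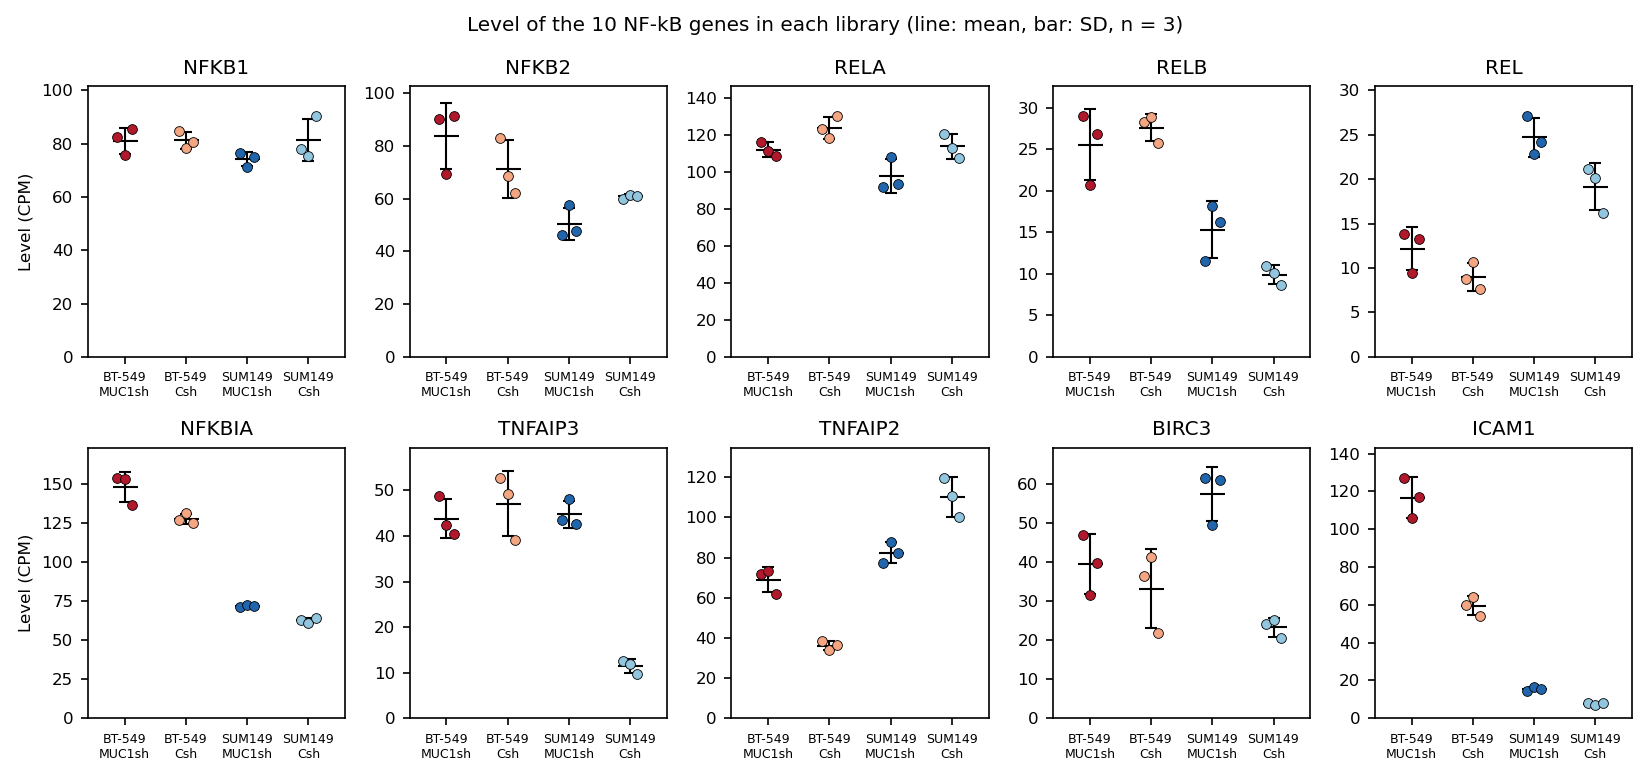
Level in CPM (vertical axis, from 0, on its own scale in each panel) of the 10 genes in the 4 groups (horizontal axis). Points are libraries, lines are means and bars are SD (n = 3), and the SUM149 CshRNA libraries of TNFAIP3 stand alone at 9.67 to 12.7 CPM.

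Across the 4 groups, the ratio of the highest to the lowest group mean was 15.4 for ICAM1, 4.12 for TNFAIP3, 3.05 for TNFAIP2, 2.79 for RELB, 2.74 for REL, 2.47 for BIRC3, 2.36 for NFKBIA, 1.66 for NFKB2, 1.27 for RELA and 1.095 for NFKB1. For ICAM1 and NFKBIA the descending order was BT-549 MUC1shRNA, BT-549 CshRNA, SUM149 MUC1shRNA and SUM149 CshRNA, with no overlap between neighbours. TNFAIP2 ran the other way by line, from SUM149 CshRNA (110.3 ± 9.90 CPM) through SUM149 MUC1shRNA (82.4 ± 5.26 CPM) and BT-549 MUC1shRNA (69.1 ± 6.35 CPM) to BT-549 CshRNA (36.2 ± 2.26 CPM, SD, n = 3 each), again without overlap. For REL both SUM149 groups lay above both BT-549 groups, and for RELB both BT-549 groups lay above both SUM149 groups. BIRC3 was highest in SUM149 MUC1shRNA (57.5 ± 6.85 CPM), and its next groups, BT-549 MUC1shRNA (39.6 ± 7.69 CPM), BT-549 CshRNA (33.3 ± 10.1 CPM) and SUM149 CshRNA (23.3 ± 2.46 CPM), overlapped neighbour by neighbour. For NFKB1 every pair of neighbours overlapped.

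The other genes of the pathway were taken from 7 lists. The share of all tested genes that rose was 16.8% in BT-549 and 27.6% in SUM149, and the share that fell was 16.5% in BT-549 and 28.9% in SUM149. Of the other IkB family genes, NFKBIZ, a nuclear IkB, rose in both lines (0.24, edgeR adjusted p = 0.019 in BT-549, and 1.102, adjusted p = 4.9e-04 in SUM149). BCL3, an IkB that acts as a coactivator of p50 and p52, fell in BT-549 (-0.33, adjusted p = 0.015), and NFKBID rose in SUM149 (0.57, adjusted p = 0.032). In all, 1 of 5 rose and 1 fell in BT-549, where the list's median on the log2 scale was -0.19, and 3 of 5 rose in SUM149, where it was 0.56. The SUM149 count was 1 without any of MUC1shRNA 2, MUC1shRNA 3, CshRNA 1 or CshRNA 2, in DESeq2, with no filter and with the filter of 5 CPM. Both BT-549 calls were lost without MUC1shRNA 1 (NFKBIZ 0.070, BCL3 0.074) or CshRNA 1 (NFKBIZ 0.075, BCL3 0.066), and that of NFKBIZ with all 12 libraries in 1 fit (0.123).

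Of the 10 genes for IKK, TAK1 and NIK kinases and their partners, 0 rose and 4 fell in BT-549 (median -0.15), and 4 rose and 2 fell in SUM149 (median 0.12). IKBKB, the IKK-beta kinase that marks IkB for destruction, fell in both lines (-0.32 in BT-549, edgeR adjusted p = 0.0023, and -0.26 in SUM149, adjusted p = 0.012). CHUK, the IKK-alpha kinase that also acts on NFKB2's product, fell in BT-549 (-0.25, adjusted p = 0.018) and rose in SUM149 (0.52, adjusted p = 3.5e-05). TAB2, an adaptor of TAK1, had 91.1 ± 10.4 CPM in SUM149 MUC1shRNA and 174.7 ± 8.62 CPM in SUM149 CshRNA (SD, n = 3 each; -0.93, adjusted p = 7.3e-07). In BT-549, 0 of these genes rose at an unadjusted p below 0.05, in DESeq2 or in limma-voom as well. The BT-549 count of 4 falls was 1 without MUC1shRNA 1 or CshRNA 1, and 2 without MUC1shRNA 3 or CshRNA 3 and in DESeq2. The CHUK call there was lost without MUC1shRNA 1 (0.054), MUC1shRNA 3 (0.071) or CshRNA 1 (0.072), and the SUM149 call of IKBKB without CshRNA 2 (0.050) or MUC1shRNA 3 (0.052), which left 1 fall.

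Of 17 receptors, 11 were tested in BT-549, where 4 rose and 3 fell (median 0.00), and 12 in SUM149, where 2 rose and 4 fell (median 0.05). TLR4, the receptor of bacterial lipopolysaccharide, had 57.2 ± 0.729 CPM in SUM149 MUC1shRNA and 19.9 ± 0.629 CPM in SUM149 CshRNA (SD, n = 3 each; 1.54, edgeR adjusted p = 3.6e-09), and 0 counts in every BT-549 library. TLR3, a sensor of double-stranded RNA, rose in BT-549 (1.09, adjusted p = 6.4e-04), and LTBR, the lymphotoxin receptor that feeds the noncanonical pathway, fell there (-0.44, adjusted p = 0.001). TNFRSF12A, the receptor of TWEAK, fell in SUM149 (-0.33, adjusted p = 0.0013). The receptor counts in BT-549 were 2 up and 1 down without MUC1shRNA 1 or MUC1shRNA 3, 4 up and 1 down without CshRNA 1, 2 up and 2 down without CshRNA 2, and 2 up and 3 down without CshRNA 3 or with the filter of 5 CPM. In SUM149, 4 receptors rose without CshRNA 3 and with no filter.

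Of 19 adaptors and ubiquitin ligases, 18 were tested, of which 3 rose and 2 fell in BT-549 (median 0.05) and 10 rose and 3 fell in SUM149 (median 0.34). MYD88, the adaptor of Toll-like and interleukin-1 receptors, had 45.5 ± 1.08 CPM in SUM149 MUC1shRNA and 19.9 ± 2.09 CPM in SUM149 CshRNA (SD, n = 3 each; 1.21, adjusted p = 1.3e-07). MALT1, a protease that activates IKK, rose in both lines (0.30 in BT-549, adjusted p = 0.012, and 0.75 in SUM149, adjusted p = 1.0e-06), as did BIRC2, the paralog of BIRC3 (0.68 in BT-549, adjusted p = 8.9e-05, and 0.35 in SUM149, adjusted p = 0.0024), and the kinase IRAK2 (0.39 in BT-549, adjusted p = 0.0018, and 0.61 in SUM149, adjusted p = 0.0029). Without BT-549 MUC1shRNA 1, 1 adaptor fell in BT-549, and the MALT1 call there was lost without MUC1shRNA 1 (0.060) or MUC1shRNA 3 (0.052).

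Of 14 negative regulators, 13 were tested in BT-549, where 3 rose and 2 fell (median 0.09), and 12 in SUM149, where 7 rose and 2 fell (median 0.31). RNF11, a partner of the A20 complex, rose in both lines (0.62 in BT-549, edgeR adjusted p = 0.0013, and 0.67 in SUM149, adjusted p = 2.7e-05). PDLIM2, which directs nuclear RELA to degradation, fell in both (-0.76 in BT-549, adjusted p = 0.0015, and -0.89 in SUM149, adjusted p = 4.9e-04). TNIP2, an A20-binding protein, fell in BT-549 (-0.26, adjusted p = 0.025) and rose in SUM149 (0.59, adjusted p = 5.1e-05). Its BT-549 call was lost without MUC1shRNA 1 (0.069), MUC1shRNA 3 (0.105), CshRNA 2 (0.063) or CshRNA 3 (0.054) and in DESeq2 (0.057), each of which left 1 fall. Of 11 ligands, 3 were tested in BT-549 (1 rose, 1 fell, median -0.92) and 5 in SUM149 (3 rose, 2 fell, median 0.65). IL1B, which encodes interleukin-1 beta, had 24.4 ± 1.35 CPM in SUM149 MUC1shRNA and 4.56 ± 0.391 CPM in SUM149 CshRNA (SD, n = 3 each; 2.43, adjusted p = 3.2e-09), and it also rose in BT-549, with 3.88 ± 0.337 CPM in MUC1shRNA and 2.24 ± 0.290 CPM in CshRNA (0.79, adjusted p = 0.0064). TNFSF12, the gene of TWEAK, fell in both lines (-0.92 in BT-549, adjusted p = 0.0082, and -1.40 in SUM149, adjusted p = 0.0035), and IL18 fell in SUM149 (-0.55, adjusted p = 3.3e-05). In BT-549, 2 ligands fell without CshRNA 1, with no filter and with all 12 libraries in 1 fit, and 0 were tested with the filter of 5 CPM. In SUM149, 1 fell with thinned controls and with that filter, where TNFSF12 was not tested. TNF was at 0 counts in both BT-549 groups and in SUM149 MUC1shRNA, and at 0.062 CPM in SUM149 CshRNA.

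Of 23 non-cytokine targets outside the 10 genes, 20 were tested in BT-549, where 10 rose and 1 fell (median 0.24), and 21 in SUM149, where 9 rose and 4 fell (median 0.19). The list shares NFKBIE, NFKBIZ, BCL3 and TNIP1 with the lists above. KLF6, a zinc-finger transcription factor, had 373 ± 39.5 CPM in BT-549 MUC1shRNA and 252 ± 22.1 CPM in BT-549 CshRNA (SD, n = 3 each; 0.56, edgeR adjusted p = 0.0011) and rose in SUM149 as well (0.85, adjusted p = 1.6e-07). TNFAIP8, an inhibitor of cell death, rose in both lines (0.45 in BT-549, adjusted p = 0.0021, and 0.28 in SUM149, adjusted p = 0.019). PLAU, the urokinase gene, had 43.0 ± 2.88 CPM in SUM149 MUC1shRNA and 13.4 ± 1.14 CPM in SUM149 CshRNA (SD, n = 3 each; 1.70, adjusted p = 9.6e-09), and 183 ± 32.7 CPM in BT-549 MUC1shRNA and 177 ± 20.6 CPM in BT-549 CshRNA (0.05, adjusted p = 0.808). The BT-549 count of 10 was 6 without MUC1shRNA 1, and 7 without MUC1shRNA 3 or CshRNA 1, and 0 fell without MUC1shRNA 1 or CshRNA 1. The SUM149 call of TNFAIP8 was lost without CshRNA 1 (0.059), with upper-quartile scaling (0.053) and with no filter (0.093).

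For each of the 10 genes, the gene with the most similar profile was found among 12088 genes, as the smallest Euclidean distance between centred log2(CPM + 1) profiles over the 12 libraries. These were DECR2 for NFKB1 (distance 0.238), NONO for RELA (0.203), KIAA1191 for NFKBIA (0.241), SLC48A1 for NFKB2 (0.424), STYX for REL (0.446), CNN2 for RELB (0.486), HEBP2 for TNFAIP2 (0.499), DHRS3 for ICAM1 (0.509), POLR3G for BIRC3 (0.665) and CDK6 for TNFAIP3 (0.687). CDK6, a cell-cycle kinase, had mean levels of 230.0 CPM in BT-549 MUC1shRNA, 191 CPM in BT-549 CshRNA, 182 CPM in SUM149 MUC1shRNA and 54.3 CPM in SUM149 CshRNA, so that as with TNFAIP3 the SUM149 controls were the lowest. The closest pair among the 10 was RELA and NFKB1, at 0.504, and NFKB1 held place 366 in the order of genes nearest to RELA. No gene of the 10 was thus the nearest neighbour of another. The distance is not scaled by spread, so genes that vary little lie close whatever their pattern. RELA and NFKB1 varied least of the 10, with ratios of highest to lowest group mean of 1.27 and 1.095. DECR2 had group means of only 1.34 to 1.61 CPM, where the added 1 in log2(CPM + 1) damps changes.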

How the data were processed

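Per the labels, total RNA was extracted in Trizol and sequenced from TruSeq Stranded mRNA libraries. The deposited table holds raw read counts per Ensembl gene that the authors made, 1 column per library. Per the submitters' processing notes, the build was GRCh38.p7 and the tools included STAR 2.7.0, CASAVA 1.8.2 and DESeq2 1.24.0, while the annotation, the counter and whether it used strand are not given. Names, coordinates and exon overlaps came from GENCODE 29 on GRCh38, which matched 57388 of 58037 lines, and 45 lines of Y pseudoautosomal copies were left out. Whether reads of a gene and of an opposite-strand partner were kept apart in the counts is therefore not known.

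Counts were scaled by TMM and filtered by filterByExpr with its defaults, and edgeR 4.0.16 (limma 3.58.1, R 4.3.3) fitted the quasi-likelihood test to the 6 libraries of each line, and to all 12 for the difference between the lines and for the control arms. Calls were made at adjusted p below 0.05 (Benjamini-Hochberg) over all tested genes. CPM values are on the TMM totals of all 12 libraries. Counting error is covered by the spread between libraries, with 7931614 to 24140623 counts each. The fits were checked on simulated counts in which a small part of the genes changed. That check does not cover data in which as many genes change as here. Replicates of a group differed beyond counting error, so none was counted once. The numbers in the titles were not taken as pairs in the main fits, since the labels do not say that they mark shared batches.

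The 10 genes, the pathway lists, the marker lists, the tests and the alternatives were chosen with earlier results of these data known. All 10 genes and MUC1 are named, with the 2 genes of smallest adjusted p among those past the test in each line from each pathway list, and the gene of nearest profile to each of the 10. The windows of 4 promoters were chosen for printing after values were seen. The alternatives were DESeq2 1.42.0, limma-voom, RLE and upper-quartile scaling, a filter of 5 CPM in 3 libraries or none, a replicate block, all 12 libraries in 1 fit, thinned SUM149 controls, and fits without each library and without those that stood apart. The list counts under the alternatives and the lengths without shared exon bases were added after seeing the data.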

Additional observations from a re-analysis of the deposited data

Results flagged for a closer look

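The tests of the difference between the responses of the lines, BT-549 minus SUM149 on the log2 scale (edgeR, Benjamini-Hochberg), marked 18 genes. The pathway genes among them had been picked for their adjusted p in 1 line or the other, so this number is not set against all genes. Of the 10 genes these were TNFAIP2 at 1.354, NFKB2 at 0.504, RELB at -0.741, BIRC3 at -1.044 and TNFAIP3 at -2.066. Of the IkB family, BCL3 differed by -0.547, NFKBIZ by -0.831 and NFKBID by -0.805. Among kinases and receptors, CHUK differed by -0.757, TAB2 by 1.051, TLR3 by 1.282 and LTBR by -0.428. Among adaptors and negative regulators, BIRC2 differed by 0.342, MYD88 by -1.013, MALT1 by -0.438 and TNIP2 by -0.83. IL1B differed by -1.628 and PLAU by -1.642. The lines also differ in medium, depth of the silenced libraries and starting level, and which of these goes with the differences cannot be told apart here.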

How the results depend on the processing

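Of the calls among the 10 genes, those of TNFAIP2 and ICAM1 in BT-549, of RELB, TNFAIP3, TNFAIP2, BIRC3 and ICAM1 in SUM149, and of RELB, TNFAIP3, TNFAIP2 and BIRC3 for the difference between the lines kept their direction and stayed past the test under every alternative run. So did the calls of RELB, REL, NFKBIA, TNFAIP3, TNFAIP2 and ICAM1 between the control arms. The number of the 10 called in BT-549 was 3, and became 6 with no filter and 5 without MUC1shRNA 2 and CshRNA 3. It was 2 without MUC1shRNA 1 or without CshRNA 1. Of the 9 calls in SUM149, those of NFKB2, RELA and REL were lost without MUC1shRNA 1. Leaving out MUC1shRNA 3 lost NFKB2 and RELA, leaving out CshRNA 2 lost RELA and NFKBIA, and fitting all 12 libraries lost NFKB2 and REL. Over all genes in BT-549 the count of 4398 was 2716 without MUC1shRNA 1.

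Changes of sign were limited to small values not past the test. For NFKB1 in BT-549 the log2 fold change of -0.01 was 0.00017 with RLE, 0.00044 with no filter, 0.00013 in DESeq2 and 0.038 without both libraries that stood apart, and -0.0401 to 0.0474 leaving out 1 library. For RELB in BT-549 it was -0.217 to 0.023 leaving out 1 library. For the difference between the lines, NFKBIA was -0.0035 with RLE, -0.0024 in DESeq2 and -0.031 without the 3 libraries that stood apart, and leaving out 1 library gave -0.025 to 0.07 for NFKBIA, -0.035 to 0.235 for REL and -0.133 to 0.015 for ICAM1. Between the control arms NFKB1 was 0.066 with no filter, 0.0031 in limma-voom, 0.053 with the replicate block and 0.075 without the 3 libraries that stood apart, and -0.0528 to 0.0803 leaving out 1 library. The cause was not tested.

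With a replicate block by title number, 2 of the 10 genes were called in BT-549 (NFKBIA was lost, adjusted p = 0.061), 9 in SUM149, 5 for the difference between the lines and 8 between the control arms, and 2951 of all genes in BT-549. Between the control arms NFKB2 then passed (0.461, adjusted p = 0.012). The block left 6 rises and 0 falls among the targets in BT-549, 2 falls among the kinases, 3 rises and 1 fall among the receptors, 2 rises and 1 fall among the negative regulators and 0 calls in the IkB family (NFKBIZ 0.060, BCL3 0.053). Deviations of same-numbered libraries from their group means had r = 0.131, -0.321 and -0.265 in BT-549 and -0.053, 0.053 and 0.092 in SUM149. Not every library was nearest to its own number. The highest r in BT-549, 0.408, was between MUC1shRNA 2 and CshRNA 3, the libraries of that line that stood apart. With 3 libraries in a group the deviations depend on each other, so these values cannot show whether same-numbered libraries shared a batch. The silenced SUM149 libraries were the shallowest, and RELB had 98 to 169 counts in them.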
